A study of Saccharomyces cerevisiae with 3 samples.

Results

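The genes described here are 37 genes of fatty acid oxidation and of the peroxisome in the budding yeast Saccharomyces cerevisiae, taken by name from a list and looked up in the annotation of the array. They comprise 15 genes of fatty acid oxidation, 19 PEX genes, whose proteins build the peroxisome, and 3 genes for transcription factors that control oxidation genes. Of the 37 genes, 34 had a spot among the 5203 named genes of the array. PEX5, PEX27 and OAF1 were matched to no spot and were not analysed here.

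The data comprised 3 two-colour microarrays. Cultures of strain S288C grew exponentially in YPD medium with glucose at 25 °C. Treated cultures received 2-aminobenzimidazole to 5 mM from a 500 mM stock for 2 h, and control cultures grew untreated for the same time. Whether control cultures received the solvent of the stock is not given here. If they did not, compound and solvent cannot be told apart. The series describes the hybridisations as independent biological samples, so each array was 1 treated culture over 1 control, n = 3 in a single group. The treated RNA carried Cy5 and the control RNA Cy3 on every array, and with 0 arrays of swapped dyes, treatment and dye cannot be told apart for any gene. Values are log ratios, read as log2 of treated over control. That direction is likely from the channel labels but is not written in the table, and the opposite one would exchange higher and lower throughout. A ratio carries no absolute level, so levels were not compared between genes. Each RNA came from a whole culture, so a change in all cells and a change in some of them cannot be told apart.

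In baker's yeast, fatty acids are broken down by beta-oxidation only in peroxisomes. Fatty acids or their coenzyme A esters enter the organelle, each turn of the oxidation spiral removes an acetyl unit, and the acetyl units leave by the glyoxylate cycle or as acetylcarnitine. The peroxin proteins encoded by PEX genes bring enzymes made in the cytosol into the organelle through shuttling receptors. Glucose represses most of the oxidation genes, and oleate induces them through the factor pair Oaf1 and Pip2 together with Adr1.

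After exposure, transcripts of 7 of the 22 members measured on all 3 arrays rose and 0 fell. They were POT1, FOX2 and SPS19 among the oxidation genes, PEX21, PEX2 and PEX18 among the PEX genes, and the regulator ADR1. Their mean ratios lay between 0.95 and 1.88 on the log2 scale, and 5 of them were at least 2-fold. Each ratio was tested against 0 in limma over all 3039 genes with a value on all 3 arrays, with Benjamini-Hochberg adjustment and a threshold of 0.05, and all adjusted p-values below come from that fit unless another is named. Over those genes 254 were called higher, 8.36%, and 293 lower, 9.64%, against 31.8% and 0 among the members. The members were chosen with earlier results of these data known, so the shares are a description and no test of the list. At an unadjusted p below 0.05, 10 members were higher and 0 lower, beside 16.3% and 19.8% of all tested genes. In a wider fit that took in every gene measured on 2 or 3 arrays, and so 32 of the members, 5 rose and 0 fell, against 5.39% and 5.83% of its genes, and ADR1 and FOX2 were no longer called. Without array 1 or without array 3, 0 members and 0 genes of the whole table passed in limma, and the means of the 7 genes then ranged from 0.96 to 2.08 and from 0.85 to 1.45. Without array 2, 8 members passed as higher, the 7 and YAT2, and 1 as lower, DCI1. Calls over all 3039 genes also became more numerous in that fit, with 373 higher and 366 lower.

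The arrays were not equally complete. Array 1 had a value for 22 of the 34 members with a spot, and arrays 2 and 3 for 33 each. Over all named genes the counts were 3062, 5044 and 5158. All 3 arrays gave a value for 64.7% of the members with a spot and for 58.4% of the named genes. A further 10 members had values on arrays 2 and 3, while POX1 was measured on array 3 alone and YAT1 on array 2 alone. Why spots lack a value was not tested.

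**Figure D1:**
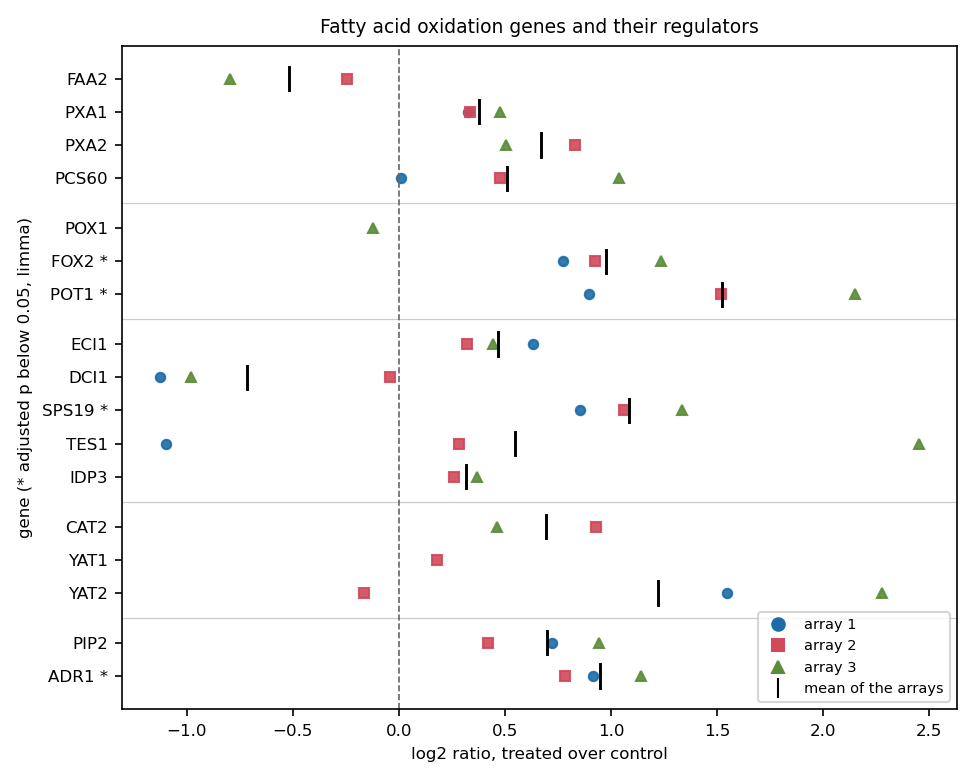
Log2 ratios of treated over control for the 15 fatty acid oxidation genes and 2 regulator genes with a spot, each array as a symbol and the mean of the arrays as a black tick. Lines separate activation and import, the oxidation spiral, auxiliary enzymes, carnitine acetyltransferases and regulators, and an asterisk marks POT1, FOX2, SPS19 and ADR1, whose adjusted p was below 0.05 in limma.

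The oxidation spiral has POX1, acyl-CoA oxidase, as its entry, FOX2 as the enzyme of hydration and the following dehydrogenation, and POT1, 3-ketoacyl-CoA thiolase, as its last step. POT1 (YIL160C) had log2 ratios of 0.90, 1.52 and 2.15 on arrays 1, 2 and 3. It was above 0 on every array, and on arrays 1, 2 and 3 it exceeded 83.7%, 96.2% and 97.3% of the named genes measured there. Its mean was 1.52 ± 0.63 (log2, SD, n = 3; 2.87-fold; adjusted p = 0.0234, limma). FOX2 (YKR009C) had 0.77, 0.93 and 1.23 on the 3 arrays. These values were closer to each other than those of POT1, and the mean of 0.98 ± 0.23 (SD, n = 3; 1.97-fold) had an adjusted p of 0.0449 in limma. FOX2 did not pass when the fit took in genes with values on at least 2 arrays (adjusted p = 0.0542, limma), a fit in which POT1 kept its call (adjusted p = 0.024). POX1 (YGL205W) had a single value, -0.12 on array 3, where POT1 and FOX2 were both more than 2-fold higher. With 1 array for POX1 its change could not be tested.

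Fatty acids reach the spiral as coenzyme A esters. PXA1 (YPL147W) and PXA2 (YKL188C) encode the subunits of the transporter that brings long-chain esters into the peroxisome, and FAA2 (YER015W) encodes the synthetase that activates medium-chain fatty acids inside it. PXA1 had 0.33, 0.34 and 0.48 on arrays 1, 2 and 3, the narrowest spread among the tested oxidation genes, and a mean of 0.38 ± 0.08 (SD, n = 3; adjusted p = 0.334, limma). PXA2 had 0.83 on array 2 and 0.50 on array 3. Both transporter genes were thus above 0 wherever they were measured, and neither passed the test, PXA2 with an adjusted p of 0.253 in the limma fit of genes on at least 2 arrays. FAA2 was below 0 on both its arrays, with -0.24 on array 2 and -0.80 on array 3 (adjusted p = 0.382, limma, at least 2 arrays). PCS60 (YBR222C), a peroxisomal acyl-CoA synthetase family member, had 0.0098, 0.47 and 1.04 on the 3 arrays and a mean of 0.51 ± 0.51 (SD, n = 3; adjusted p = 0.268, limma).

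Auxiliary enzymes remodel unsaturated chains and supply reducing power. SPS19 (YNL202W), 2,4-dienoyl-CoA reductase, had 0.85, 1.06 and 1.33 on arrays 1, 2 and 3. All 3 values were within 0.48 of each other, and the mean of 1.08 ± 0.24 (SD, n = 3; 2.12-fold) passed with an adjusted p of 0.0347 in limma. IDP3 (YNL009W), the peroxisomal isocitrate dehydrogenase that supplies NADPH for that reductase, had 0.26 on array 2 and 0.37 on array 3 (adjusted p = 0.587, limma, at least 2 arrays). The paralogs ECI1 (YLR284C) and DCI1 (YOR180C) stood on opposite sides of 0, and neither passed with all 3 arrays. ECI1, the enoyl-CoA isomerase needed for unsaturated fatty acids, had 0.63, 0.32 and 0.44 on the 3 arrays. Its mean was 0.47 ± 0.16 (SD, n = 3, adjusted p = 0.244 in limma). DCI1 had -1.13, -0.04 and -0.98 on the same arrays, the lowest mean of all tested members at -0.72 ± 0.59 (SD, n = 3; adjusted p = 0.147, limma). ECI1 exceeded DCI1 on 3 of 3 arrays, by 1.18 ± 0.73 in log2 ratio (SD, n = 3), and the exact two-sided permutation test of the paired difference gave p = 0.25, the smallest that 3 arrays allow (0.458 adjusted over the 11 pairs of members compared). Without array 2, where the pair differed least, DCI1 passed as lower, with a mean of -1.05 (adjusted p = 0.0383, limma).

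TES1 (YJR019C), the peroxisomal acyl-CoA thioesterase, was the least repeatable member. It had -1.10 on array 1, 0.28 on array 2 and 2.45 on array 3. The sign differed between arrays, and the span of 3.55 compares with a median span of 0.75 over the 22 members and 0.89 over all genes on 3 arrays. The mean of 0.55 ± 1.79 (SD, n = 3; adjusted p = 0.549, limma) therefore describes no single array, and without array 3 it was -0.41.

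Carnitine acetyltransferases move acetyl units between compartments. YAT2 (YER024W) had 1.55 on array 1, -0.17 on array 2 and 2.28 on array 3. Array 2 stood apart from the other arrays, and the mean of 1.22 ± 1.26 (SD, n = 3; 2.33-fold) did not pass with all arrays (adjusted p = 0.107, limma). It passed at 1.91 without array 2 (adjusted p = 0.00535, limma) and at 1.45 with array weights (adjusted p = 0.0291, limma). CAT2 (YML042W), the enzyme of peroxisomes and mitochondria, had 0.93 on array 2 and 0.46 on array 3, so the order of YAT2 and CAT2 differed between these arrays. YAT1 (YAR035W), of the mitochondrial outer membrane, had 0.18 on array 2.

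**Figure D2:**
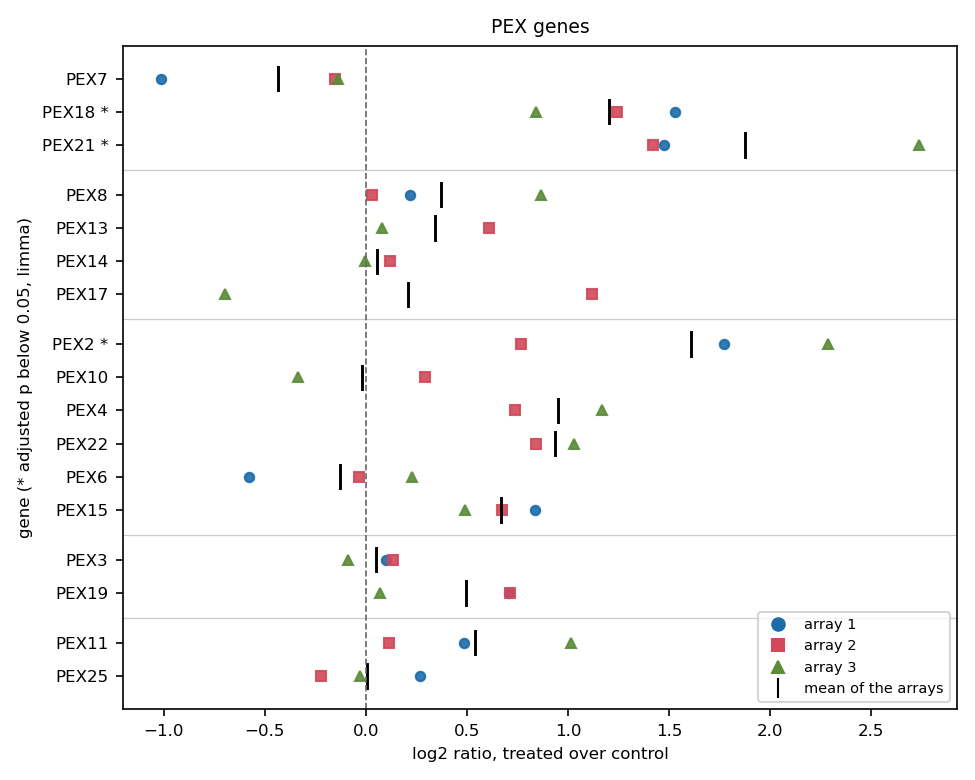
Log2 ratios of treated over control for the 17 PEX genes with a spot, each array as a symbol and the mean as a black tick. Lines separate import receptors, docking proteins with PEX8, ubiquitin and recycling proteins, membrane protein import and division. An asterisk marks PEX18, PEX21 and PEX2, which had an adjusted p below 0.05 in limma and lay above 0 on every array.

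Of the PEX genes, those for both co-receptors of 1 import route and for a ubiquitin ligase subunit rose. Proteins with the amino-terminal targeting signal, of which the thiolase Pot1 is the best known in yeast, are imported by the receptor Pex7 together with either of the co-receptors Pex18 and Pex21. PEX21 (YGR239C) had 1.47, 1.42 and 2.74 on arrays 1, 2 and 3. It was at least 2-fold higher on every array, which held for 1 member and for 3.78% of all genes on 3 arrays. Its mean of 1.88 ± 0.75 (SD, n = 3; 3.67-fold; adjusted p = 0.0174, limma) was the highest of all tested members and exceeded 97.2% of tested genes. PEX18 (YHR160C) had 1.53, 1.24 and 0.84 on the 3 arrays and a mean of 1.20 ± 0.35 (SD, n = 3; 2.31-fold; adjusted p = 0.0298, limma). The co-receptor genes lay close together on arrays 1 and 2 and 1.90 apart on array 3. PEX7 (YDR142C) had -1.01, -0.15 and -0.14 on the 3 arrays. Its values were below 0 on every array, with a mean of -0.43 ± 0.50 (SD, n = 3; adjusted p = 0.338, limma). PEX21 lay above PEX7 on 3 of 3 arrays, by 2.31 ± 0.67 in log2 ratio (SD, n = 3). PEX18 lay above PEX7 on 3 of 3 arrays, by 1.64 ± 0.81. For either pair the exact two-sided permutation test gave p = 0.25, the smallest possible (0.458 adjusted over 11 pairs).

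Import ends with the ubiquitination and recycling of the receptors. PEX2 (YJL210W) and PEX10 (YDR265W) encode RING finger proteins of the ubiquitin ligase complex in the peroxisomal membrane. PEX2 had 1.77, 0.76 and 2.29 on arrays 1, 2 and 3, lowest on array 2, and a mean of 1.61 ± 0.77 (SD, n = 3; 3.05-fold; adjusted p = 0.0248, limma). PEX10 had 0.29 on array 2 and -0.34 on array 3, and on both arrays it lay below PEX2. PEX4 (YGR133W), the ubiquitin-conjugating enzyme, had 0.74 on array 2 and 1.17 on array 3. PEX22 (YAL055W), the anchor of Pex4 in the membrane, had 0.84 and 1.03 on the same arrays. The genes of this enzyme and its anchor thus had like ratios, with means of 0.95 ± 0.30 and 0.94 ± 0.13 (SD, n = 2), and did not pass in the limma fit of genes on at least 2 arrays (adjusted p = 0.129 and 0.128).

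PEX15 (YOL044W) encodes the membrane anchor of the ATPase that extracts receptors, and PEX6 (YNL329C) a subunit of that ATPase. PEX15 had 0.84, 0.67 and 0.49 on arrays 1, 2 and 3, all above 0, with a mean of 0.67 ± 0.17 (SD, n = 3) that did not pass (adjusted p = 0.117, limma). PEX6 had -0.58, -0.034 and 0.23 on the 3 arrays, so its sign was not settled (mean -0.13 ± 0.41, SD, n = 3; adjusted p = 0.785, limma).

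Genes of the docking proteins, where loaded receptors bind the membrane, were not called, nor was PEX8, which is grouped with them here. PEX8 (YGR077C), on the inner face of the membrane, had 0.22, 0.031 and 0.86 on arrays 1, 2 and 3 (mean 0.37 ± 0.44, SD, n = 3; adjusted p = 0.394, limma). PEX13 (YLR191W) had 0.61 and 0.079, and PEX14 (YGL153W) had 0.12 and -0.0053, on arrays 2 and 3. PEX17 (YNL214W) had 1.12 on array 2 and -0.70 on array 3, opposite signs on the only arrays that measured it. None of these 4 genes passed a limma fit (adjusted p of 0.394 for PEX8, and 0.564, 0.941 and 0.813 for the others in the fit of genes on at least 2 arrays).

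PEX3 (YDR329C) and PEX19 (YDL065C) act in the insertion of peroxisomal membrane proteins, and PEX11 (YOL147C) and PEX25 (YPL112C) in elongation and proliferation of the organelle. PEX3 had 0.099, 0.14 and -0.090 on arrays 1, 2 and 3 (adjusted p = 0.917, limma), with a 95% interval of the mean from -0.56 to 0.66. PEX19 had 0.71, 0.71 and 0.071, nearly equal on arrays 1 and 2 and closer to 0 on array 3 (mean 0.50 ± 0.37, SD, n = 3; adjusted p = 0.245, limma). PEX11, an oleate-induced gene, had 0.48, 0.11 and 1.01, above 0 on every array (mean 0.54 ± 0.45, SD, n = 3; adjusted p = 0.228, limma). PEX25 had 0.27, -0.22 and -0.027 on the same arrays (adjusted p = 0.989, limma), with an interval from -0.62 to 0.64.

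**Figure D3:**
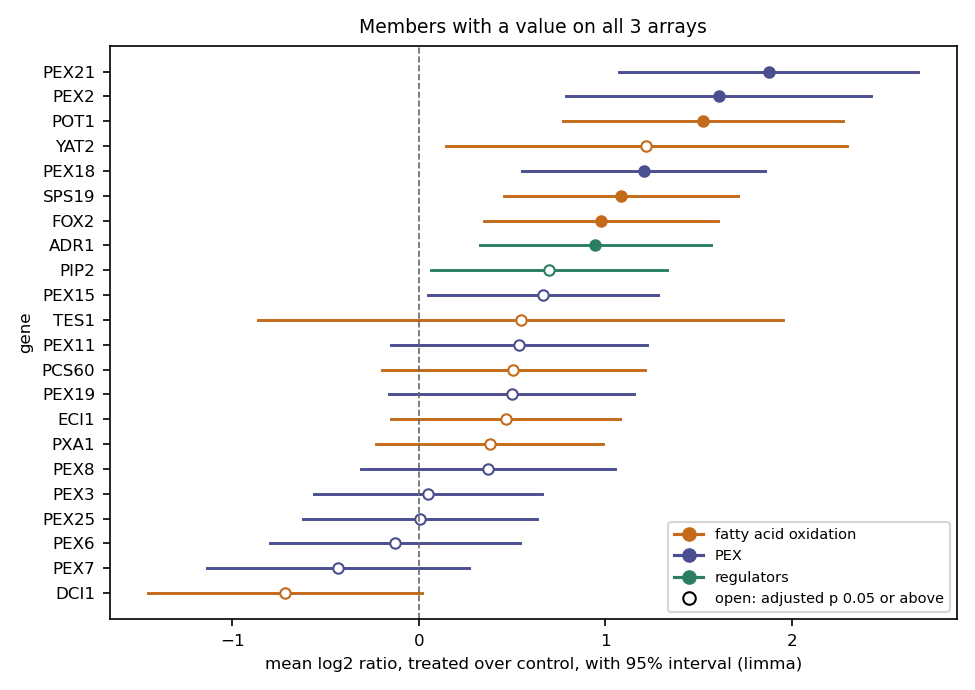
Mean log2 ratio of the 22 members with a value on all 3 arrays, sorted by mean, with the 95% interval from limma. Filled points are the 7 genes with an adjusted p below 0.05, from ADR1 at 0.95 to PEX21 at 1.88, and open points are the other 15. The intervals of YAT2, PIP2 and PEX15 lie above 0 before adjustment only.

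The regulators were measured in part. Adr1 is the zinc finger activator that is inactive in high glucose, and Pip2 is the partner of Oaf1 at oleate response elements. ADR1 (YDR216W) had 0.91, 0.78 and 1.14 on arrays 1, 2 and 3. Its values were alike on all arrays, with a mean of 0.95 ± 0.18 (SD, n = 3; 1.93-fold; adjusted p = 0.0476, limma), the weakest of the 7 calls. The annotation gives ADR1 2 spots with identical values, which were counted as 1 measurement. The call was lost with scaled arrays (adjusted p = 0.0515, limma) and with genes on at least 2 arrays (adjusted p = 0.0575, limma). PIP2 (YOR363C) had 0.72, 0.42 and 0.95, above 0 on every array, and a mean of 0.70 ± 0.26 (SD, n = 3) that did not pass (adjusted p = 0.114, limma).

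The medians of the oxidation genes and of the PEX genes both lay above that of all named genes on every array, and which set was higher on array 2 depended on the genes counted. Of 9 oxidation genes on all 3 arrays 3 rose (33.3%), 0 fell and 6 did not pass. Of 11 PEX genes 3 rose (27.3%), 0 fell and 8 did not pass. Over all genes on 3 arrays, 8.36% were called higher and 9.64% lower. On arrays 1, 2 and 3 the median of the oxidation genes was 0.63, 0.33 and 0.49, over 9, 14 and 14 genes. The median of the PEX genes was 0.48, 0.61 and 0.23, over 11, 17 and 17 genes. The medians of all named genes were -0.058, 0.034 and -0.044. The oxidation median was above the PEX median on arrays 1 and 3 and below it on array 2, by 0.15, 0.26 and -0.28 for arrays 1, 3 and 2, a mean difference of 0.04 ± 0.28 (SD, n = 3). The genes in these medians changed from array to array. Over the 9 oxidation and 11 PEX genes measured on all 3 arrays, the oxidation median was the higher on each, at 0.63, 0.34 and 1.23 on arrays 1, 2 and 3 against 0.48, 0.14 and 0.49 for the PEX genes. The differences were then 0.15, 0.20 and 0.74, with a mean of 0.36 ± 0.33 (SD, n = 3). The PEX median on array 2 was thus 0.61 with the 6 genes that lack array 1 and 0.14 without them. These differences are given as descriptions, with no test. With the means of each gene over its arrays the set medians were 0.51 and 0.37, and 0.55 and 0.50 over the genes on all 3 arrays.

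**Figure D4:**
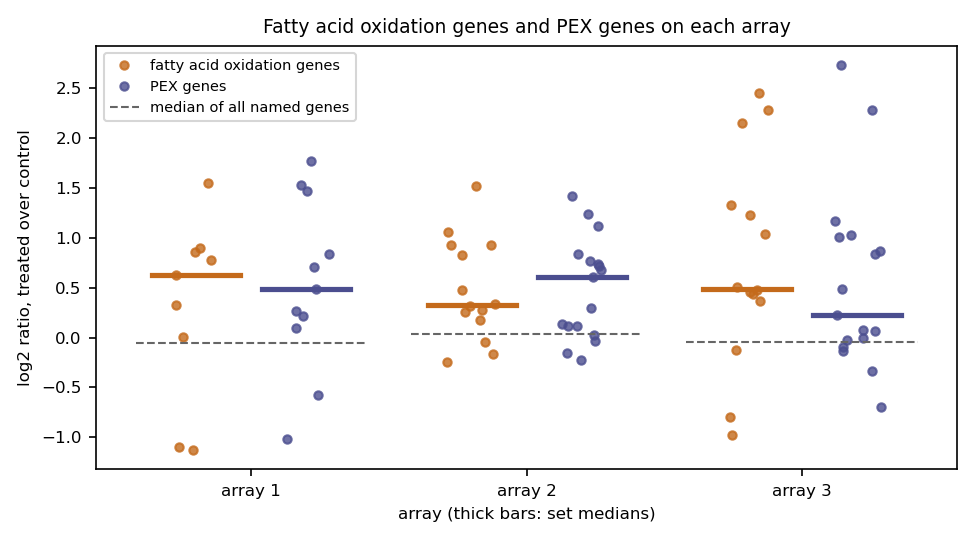
Log2 ratios of the fatty acid oxidation genes and the PEX genes on each array, a point per gene, with thick bars for set medians (0.63 and 0.48 on array 1, 0.33 and 0.61 on array 2, 0.49 and 0.23 on array 3) and a dashed line for the median of all named genes. The horizontal scatter of points has no meaning, and the genes measured differ between arrays.

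The sign of the members was mostly positive, and the counts below include the 7 called genes, each above 0 on every array. These counts are thus not separate from the calls. Of the 22 members on all 3 arrays, 15 were above 0 on every array, 2 (DCI1 and PEX7) were below 0 on every array, and 5 had mixed signs, while 25.8% of all genes on 3 arrays were above 0 throughout and 30.6% below. Of the 10 members measured only on arrays 2 and 3, 6 were above 0 on both, 1 (FAA2) was below 0 on both and 3 had mixed signs. The share of all genes without an array 1 value that were above 0 on both was 34.1%, and 30.9% were below. The members are not independent of each other, since several share regulators, and they share the same 3 pairs of RNA.

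The members were highest on array 3 in 15 of 22 cases, including 7 of 9 oxidation genes and 6 of 11 PEX genes, and 37.7% of all genes on 3 arrays were highest there. On array 3, 12 of 33 members were at least 2-fold higher (36.4%, against 13% of named genes), on array 2 5 of 33 (15.2%, against 10.9%) and on array 1 4 of 22 (18.2%, against 14.2%). Across the 22 members, which share their RNA samples and are no replicates, the log2 ratios correlated with a Pearson r of 0.60 for arrays 1 and 2, 0.53 for arrays 1 and 3 and 0.51 for arrays 2 and 3. Over all 3039 genes the same coefficients were 0.52, 0.75 and 0.47.

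The chromosomal neighbours of the 7 genes that rose were also looked up, by gene order in the RefSeq annotation of assembly R64. Of the 14 adjacent protein-coding genes, 13 had a value on some array, with means between -0.79 and 0.78, and 4 had a value on all 3 arrays. Of those 4, 0 passed in limma, and 2 of them, PFK1 and YAP1801, were below an unadjusted p of 0.05. The neighbours named here were picked after their values were seen. PFK1, the phosphofructokinase gene next to PEX21, had -1.22, -0.67 and -0.48 on arrays 1, 2 and 3, below 0 where PEX21 was above (adjusted p = 0.0953, limma). YAP1801, an endocytic adaptor gene next to PEX18, had 1.43, 0.49 and 0.43, above 0 on every array like PEX18 (adjusted p = 0.117, limma). The divergent neighbour of POT1, the formin gene BNR1, had -0.15 and 0.31 on arrays 2 and 3.

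Other genes of the same processes were taken from 3 lists written from general knowledge: 22 further peroxisome genes, 13 further genes of fatty acid use and carnitine, and 11 genes of the Adr1 and Snf1 glucose circuit. Together 28 of these 46 genes were measured on all 3 arrays, of which 7 rose (25%), 1 fell and 20 did not pass. Over all tested genes 8.36% were called higher and 9.64% lower, the shares beside which the counts of each list stand. The lists, like the members, were chosen with earlier results of these data known, so the shares are a description and no test. Separately, 2 of 11 peroxisome genes rose and 0 fell, 4 of 11 fatty acid use genes rose and 1 fell, and 1 of 6 glucose circuit genes rose and 0 fell. The medians of the means were 0.32, 0.20 and -0.27 for the 3 lists, against -0.04 for all tested genes.

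In the list of fatty acid use and carnitine 4 genes rose, CRC1, AGP2 and CIT2 among them, 1 fell and 6 did not pass. CRC1 (YOR100C), the mitochondrial carnitine carrier, had 1.75, 1.52 and 1.94 on arrays 1, 2 and 3 and rose to 1.73 ± 0.21 (SD, n = 3; adjusted p = 0.013, limma). AGP2 (YBR132C), a plasma membrane permease needed for carnitine uptake, had 2.90, 0.93 and 2.09 and rose to 1.97 ± 0.99 (SD, n = 3; adjusted p = 0.0213, limma). Both were above 0 on every array, AGP2 lowest on array 2, as YAT2 was. CIT2 (YCR005C), the peroxisomal citrate synthase, had 1.25, 2.11 and 0.69 and rose to 1.35 ± 0.72 (SD, n = 3; adjusted p = 0.0352, limma), highest on array 2. HNM1 (YGL077C), of the same list and named after its values were seen, had -0.94, -1.91 and 0.34 on arrays 1, 2 and 3. The mean of HNM1 was -0.84 ± 1.12 (SD, n = 3) and did not pass (adjusted p = 0.202, limma).

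PNC1 (YGL037C), a nicotinamidase that is carried into peroxisomes through the Pex7 route, had 2.01, 2.10 and 1.15 and rose to 1.75 ± 0.52 (SD, n = 3; adjusted p = 0.016, limma). STR3 (YGL184C), a cystathionine lyase found in peroxisomes, had 4.42, 1.34 and 4.70 and rose to 3.49 ± 1.86 (SD, n = 3; adjusted p = 0.017, limma); it is also a gene of methionine synthesis. MIG1 (YGL035C), the glucose repressor, had 0.80, 0.88 and 1.58 and rose to 1.09 ± 0.43 (SD, n = 3; adjusted p = 0.042, limma). FAT1 (YBR041W), which acts in fatty acid uptake and activates very long chains, was the gene that fell, with -1.10, -0.60 and -1.29 and a mean of -0.998 ± 0.36 (SD, n = 3; adjusted p = 0.0483, limma), a call not kept with genes on at least 2 arrays (adjusted p = 0.057, limma). ACS1 (YAL054C), the acetyl-CoA synthetase of cells without glucose, was singled out after its values were seen. ACS1 lacked array 1 and had 1.04 and 2.12 on arrays 2 and 3 (adjusted p = 0.0466, limma, at least 2 arrays). ADH2 (YMR303C), of the same glucose circuit list and also named after its values were seen, had -0.74, 0.58 and -0.54 on arrays 1, 2 and 3. Its mean of -0.23 ± 0.71 (SD, n = 3) did not pass (adjusted p = 0.661, limma).

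**Figure D5:**
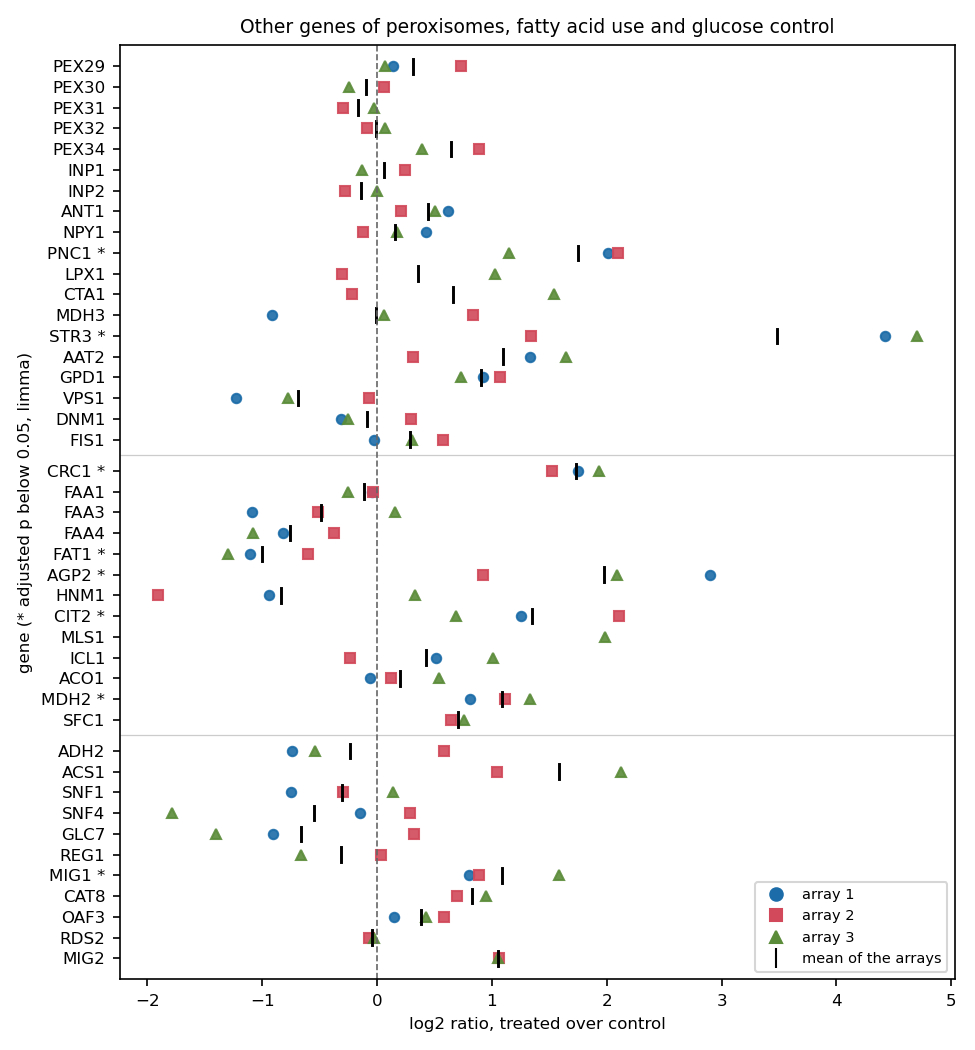
Log2 ratios of treated over control for the other genes of peroxisomes, fatty acid use with carnitine, and the glucose circuit that had a value, separated by lines in that order, each array as a symbol and the mean as a black tick. An asterisk marks an adjusted p below 0.05 in limma over genes on all 3 arrays: 7 genes with means above 0, up to STR3 at 3.49, and FAT1 at -0.998.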

How the data were processed

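Messenger RNA was compared on 3 two-colour arrays, treated over control. The deposited values are log ratios, taken as log2, after a LOWESS normalisation by the authors of spots with flag value 0, per the labels. The scanner, image software, background correction and log base are not given in the sources used. The highest value, 6.89, would be a ratio of 7829462 in base 10, 119 in base 2 and 986 in natural log, so base 2 was used as customary and natural log stays possible, which would make every fold larger. No intensities were used, so whether a spot was near background is unknown, and the number of arrays limits the precision.

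Spots were named through the platform annotation and its Entrez identifiers in the RefSeq table of assembly R64. Of 6272 spots, 5308 had 1 symbol, 0 several and 964 none here, and 5304 matched the RefSeq table. Where a gene had more than 1 spot, the spots' mean was taken on each array. All 37 members were found in the RefSeq table by symbol, and 34 had a spot. The members, lists and naming rule were chosen with earlier results of these data known. The naming rule took every member with a value and, of the other lists, the 6 highest and 6 lowest genes past the threshold.

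The test of every gene against a ratio of 0 used limma 3.58.1 under R 4.3.3 (intercept, eBayes, two-sided, Benjamini-Hochberg, adjusted p below 0.05) over the 3039 genes on all 3 arrays, with 2 residual and 5.31 prior degrees of freedom. Members on 2 arrays were read from a second fit of the 5043 genes on at least 2 arrays, in which 5.39% were called higher and 5.83% lower. Gene sets were described by counts and medians only. Alternatives were centring, scaling, robust variance, array weights, at least 2 arrays, the median of spots, a threshold of 0.01, leaving out each array, and, chosen after seeing the data, arrays 2 and 3 alone and, for the set medians, only members on all 3 arrays.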

Additional observations from a re-analysis of the deposited data

How the results depend on the processing

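The 7 members called higher were also the calls with centred arrays, robust variance and the median of spots, and 6 of them remained with scaled arrays (without ADR1) and 5 with genes on at least 2 arrays (without ADR1 and FOX2). Array weights added YAT2, giving 8. Leaving out each array gave 0 to 8 members called higher, 0 to 1 called lower, 0 to 373 genes called higher and 0 to 366 called lower. The counts of 0 higher arose in limma without array 1 or array 3, where 7 and 5 members and 288 and 304 genes were higher at an unadjusted p below 0.05 (347 and 411 genes lower). With arrays 2 and 3 alone, over all genes on both, 0 genes were called higher and 0 lower (471 and 533 unadjusted) and 0 of 32 members higher (9 unadjusted). At an adjusted p below 0.01, limma called 0 members higher, 23 genes higher and 13 lower. The median of the oxidation genes, 0.507, was 0.404 to 0.668 with an array left out and 0.694 on arrays 2 and 3 alone. The PEX median, 0.371, was 0.389 to 0.608 with an array left out. Their difference, 0.137, was -0.204 to 0.275 with an array left out, 0.302 on arrays 2 and 3 alone, 0.03 with array weights and 0.048 over members on all 3 arrays. Means that changed sign belonged to genes that did not pass: TES1 (-0.409 to 1.367 with an array left out), PEX6 (-0.305 to 0.098, and 0.098 on arrays 2 and 3 alone), PEX25 (-0.123 to 0.12, -0.123 on arrays 2 and 3 alone, and -0.011 with scaled arrays) and PEX10 (-0.021, and 0.005 with scaled arrays). The cause of these shifts was not tested, beyond the smaller number of arrays. The arrays form 1 group and each carries its own control, so the test of the ratio against 0 already pairs treated with control RNA.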
